A study of Mus musculus with 4 samples.

Results

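The DNA replication genes considered here are 46 genes chosen by name for their role in copying DNA, from origin licensing to chromatin assembly behind the fork. They were followed in GLORI profiles of N6-methyladenosine (m6A) from mouse retinal organoids, and all 46 had listed m6A sites in every library. They held 4503 of the 833043 distinct sites that the 4 tables place in genes, and 46 of the 20001 genes named there. All 4 libraries came from the same Rx:GFP line, a retinal reporter line of mouse cells in which FKBP12F36V-HA was joined to the C-terminus of the endogenous Mettl3 gene, so the untreated group carries the tag too. The organoids had been differentiated with GMEM, KSR and AGN to day 6. The untreated group (2 libraries, 0 h) received no dTAG13, and the dTAG13 group (2 libraries) received 125 nM for 8 h before collection at the same time. dTAG13 is a small molecule that recruits proteins carrying the FKBP12F36V tag to a ubiquitin ligase, after which they are degraded. The labels do not say whether the 2 libraries of a group came from separate cultures, so p-values measure only the spread between these libraries, which may be technical. In the genotype and cell line fields the Mettl gene named differs from sample to sample, while the growth protocol and the series text name Mettl3 for all of them.

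Before S phase, the origin recognition complex, CDC6 and CDT1 load the MCM helicase onto DNA, and geminin blocks reloading. The kinase CDC7 with its partner DBF4 then lets CDC45 and the GINS complex join the helicase, and DNA polymerases alpha, delta and epsilon copy the strands with the sliding clamp PCNA and its loader RFC. Many of these genes are transcribed in the cell cycle phase that needs them, and retinal progenitors of this stage are dividing cells. The m6A mark is placed on mRNA by a complex whose catalytic subunit is METTL3, mostly near the stop codon and in the last exons, and it shortens the life of many transcripts. In GLORI, unmethylated A is deaminated and read as G, so the level of a site is its A reads as a percentage of A plus G reads.

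Each table lists called sites only. No listed site had fewer than 15 reads, fewer than 5 A reads or a level below 10%, so a site missing from a table can be unmethylated, under these limits or uncovered. The submitters' processing notes name mm10 as the genome build. Only 230 of the 4503 distinct sites (5.11%) lie inside the interval of their gene in a GRCm38.p6 gene table, the assembly behind mm10, although all 46 chromosomes match. Positions are therefore given as the tables list them, with the build not settled, and no exon, intron or UTR was assigned. The median depth (A plus G reads) of a listed site in the 46 genes was 148 and 143 in the untreated libraries against 102 and 135 in the treated ones. The median gene coverage of these genes, in the deposited unit, was 166 and 168 without and 111 and 146 with dTAG13, and dTAG13 replicate 1 was the shallowest library. Over all other genes the median reads per site were 96 and 99 without and 87 and 112 with dTAG13. The 6 retinal progenitor markers Rax, Pax6, Six3, Six6, Lhx2 and Otx2 were listed in all 4 libraries, with gene coverage between 135 and 656. The pluripotency genes Pou5f1, Nanog, Zfp42 and Dppa5a were also listed in all 4, with coverage between 59.0 and 525. Of the neuronal genes, Tubb3 (143 to 244) and Stmn2 (39.6 to 45.0) were listed in all 4 and Dcx and Elavl3 in 1 library each. Of the mesendoderm genes, Sox17 was listed in 4 libraries, Eomes in 2, Foxa2 in 1 and T in 0. What part these other cells have in the values below was not tested.

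The number of listed sites in the 46 genes was lower after dTAG13. The untreated libraries listed 1385 and 1473 sites and the dTAG13 libraries 1050 and 1146. The means were 1429 ± 62.2 and 1098 ± 67.9 (SD, n = 2 each), a ratio of 0.768. The groups did not overlap and differed by more than the spread within either. Over all other genes the same ratio was 0.714, from 259356 and 270701 sites to 177689 and 200789. The deposited conversion rate of the gene, a share of A read as G, moved with this result. Untreated medians over the 46 genes were 95.4% and 96.2%, and dTAG13 medians 96.6% and 96.6%. Over all other genes the medians shifted alike, from 95.8% and 96.2% without to 96.8% and 96.7% with dTAG13. Among the 46 genes it was higher in both dTAG13 libraries than in both untreated libraries in 22 and lower in both in 2. This count was not made over all genes, so it does not set the replication genes apart. The part of the conversion rate in the smaller number of sites was not tested.

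Every functional group had fewer listed sites after dTAG13. The 12 licensing genes went from 426 and 436 sites to a mean of 320.5 ± 19.1 (SD, n = 2; ratio 0.744). The 10 genes of origin firing and the replicative helicase went from 249 and 246 to 186 and 199 (ratio 0.778). The 8 polymerase and primase genes went from 235 and 231 to 185 and 180 (ratio 0.783). In these 3 groups both dTAG13 libraries lay well below both untreated libraries. The 8 genes of the clamp, the clamp loader and single-strand binding went from 218 and 245 to 177 and 205 (ratio 0.825). The nucleotide supply genes Rrm1, Rrm2, Tyms and Dut went from 134 and 151 to 106 and 102 (ratio 0.730), and the chromatin assembly genes Chaf1a and Chaf1b from 59 and 56 to 41 and 49 (ratio 0.783). The groups of libraries did not overlap in these 3 sets either. The lagging strand genes Fen1 and Lig1 were the exception, with 64 and 108 sites without and 48 and 77 with dTAG13, values that overlapped.

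**Figure D1:**
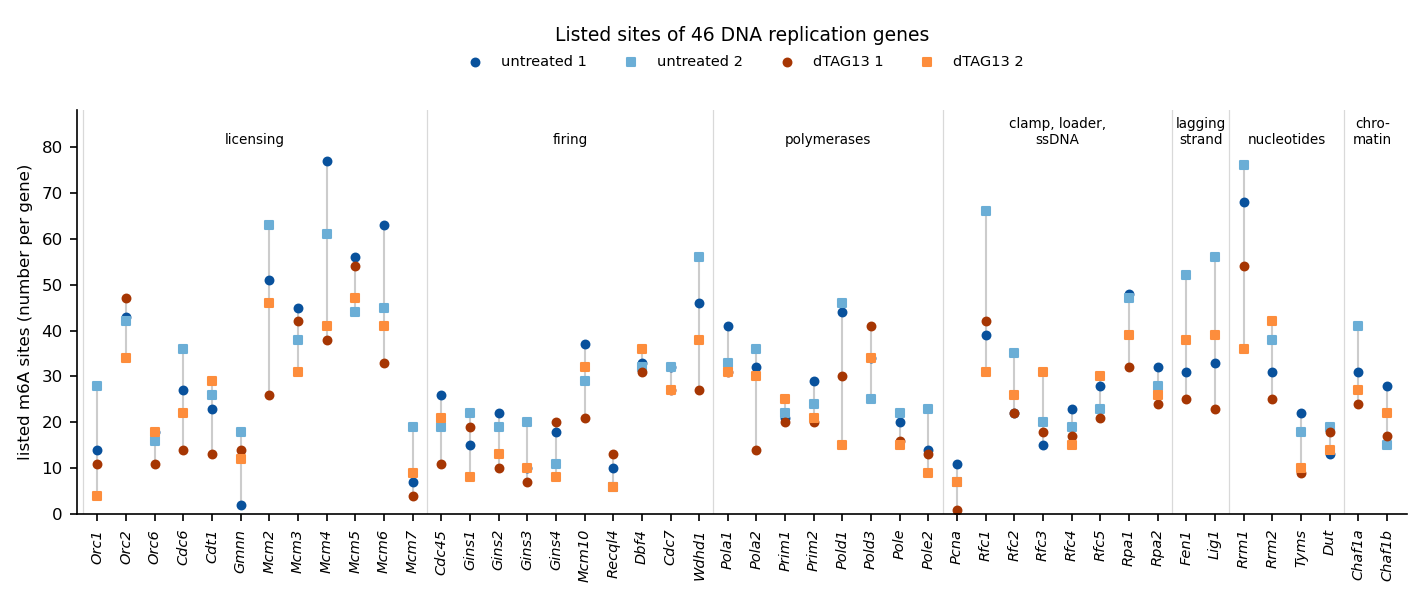
Number of listed m6A sites (vertical axis) in each of the 46 genes, ordered by role along the horizontal axis; blue symbols are the 2 untreated libraries, orange symbols the 2 dTAG13 libraries, and grey lines join the lowest and highest value. Both dTAG13 libraries lie below both untreated libraries in 20 genes, among them Mcm4 and Rrm1, and above them in 0.

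Gene by gene, the mean number of listed sites was lower after dTAG13 in 37 genes, higher in 7 and equal in 2. In 20 genes each dTAG13 value was below each untreated value, and in 0 genes the values were separated the other way. This is 43.5% of the 46 genes, against 46.4% of all genes tested with lower and 4.51% with higher numbers, so the share of replication genes is close to the background. The largest fall was in Mcm4, a subunit of the MCM helicase, with 77 and 61 sites without and 38 and 41 with dTAG13. Rrm1, the large subunit of ribonucleotide reductase, had 68 and 76 sites without and 54 and 36 with dTAG13. Pold1, the catalytic subunit of polymerase delta, had 44 and 46 against 30 and 15. In these 3 genes the groups did not overlap. Mcm2 went from 51 and 63 to 26 and 46, and Wdhd1, which links the helicase to polymerase alpha, from 46 and 56 to 27 and 38. Again neither gene's groups overlapped. Tyms, thymidylate synthase, had 22 and 18 sites without and 9 and 10 with dTAG13. Orc1, a subunit of the origin recognition complex, had 14 and 28 against 11 and 4.

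The genes that went the other way did so within the spread of the libraries. Pold3, an accessory subunit of polymerase delta, had 34 and 25 sites without and 41 and 34 with dTAG13, so that the groups met at 34. Rfc3, a clamp loader subunit, had 15 and 20 against 18 and 31. Gmnn, which encodes geminin, had 2 and 18 against 14 and 12. Recql4, a helicase that acts in origin firing, had 10 and 6 against 13 and 6, Prim1 had 21 and 22 against 20 and 25 and Dbf4 had 33 and 32 against 31 and 36. In these 6 genes the libraries overlapped. Mcm5 had 56 and 44 against 54 and 47, and its libraries overlapped too. Orc2 had 43 and 42 against 47 and 34, a lower mean with overlapping libraries. Both are among the 10 replication genes with the most listed sites, with Rrm1, Mcm4, Mcm2, Mcm6, Rfc1, Wdhd1, Rpa1 and Mcm3 as the others, a ranking that is not scaled to transcript length.

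No replication gene passed the test of its own number of sites. With edgeR's quasi-likelihood test and Benjamini-Hochberg adjustment over 12449 genes, 0 of the 46 genes and 0 of all genes changed at an adjusted p under 0.05. At an unadjusted p under 0.05 there were 6 replication genes, all lower, or 13% against 20.2% of all genes. DESeq2 also called 0 replication genes. These 6 were Mcm4, Tyms, Pold1, Rrm1, Wdhd1 and Gins2. The log2 change of Mcm4 was -0.80 ± 0.20 (SE, n = 2 per group; edgeR adjusted p 0.179), and that of Tyms was -1.06 ± 0.34 (adjusted p 0.197). The median log2 change of the 46 genes was -0.39, beside -0.51 over all genes tested. With library sizes set to the total of listed sites and TMM factors, the median of all genes was -0.02 and that of the replication genes 0.11, with 22 genes called lower, 43 higher and 0 replication genes among them, so the direction of the replication genes turns with this scaling.

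The smaller number came from sites of low level. Sites under 40% fell from 1071 and 1152 to 747 and 805 (ratio 0.698). Sites at 40% or more numbered 314 and 321 without and 303 and 341 with dTAG13. The means of 318 ± 4.95 and 322 ± 26.9 (SD, n = 2 each; ratio 1.01) were closer together than the dTAG13 libraries were to each other. Over all other genes, sites at 40% or more went from 95166 and 94465 to 68179 and 77987 (ratio 0.771). Most of the high sites were seen once: 1067 sites at 40% or more were listed in a single library. The replication genes also had fewer high sites in proportion than other genes, with 22.7% and 21.8% of the listed sites at 40% or more without dTAG13 against 36.7% and 34.9%. These shares were 28.9% and 29.8% with dTAG13 against 38.4% and 38.8% in other genes.

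Few sites recurred between libraries. Of the 4503 distinct sites, 4001 (88.9%) appeared once, 459 in a pair of libraries, 37 in 3 tables and 6 in every table. Over all other genes 91.4% of the sites were listed in 1 library. All 46 genes had a site listed in at least 2 libraries and 27 had a site listed in at least 3. The 2 untreated libraries shared 167 replication gene sites, 12.1% of the sites of replicate 1 and 11.3% of those of replicate 2. The dTAG13 libraries shared 89 sites (8.48% and 7.77% of their lists), and the 4 mixed pairs shared 70 to 107. The untreated pair thus shared the most sites, although the level of a shared site still differed by a median of 8.10 percentage points between the 2 untreated libraries.

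The excess in the untreated pair was greatest at high level. At a mean level under 40% 124 sites were common to the untreated pair and 76 to the dTAG13 pair (ratio 0.613). At 40% or more these numbers were 43 and 13 (ratio 0.302). The mixed pairs shared 10 to 21 sites at 40% or more. Over all other genes the ratios were 0.555 and 0.252. With at least 100 reads in both libraries, a limit added after seeing the data, the untreated pair shared 24 sites at 40% or more and the dTAG13 pair 1, while the numbers over all other genes were 2718 and 323. With at least 50 reads they were 35 and 5.

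**Figure D2:**
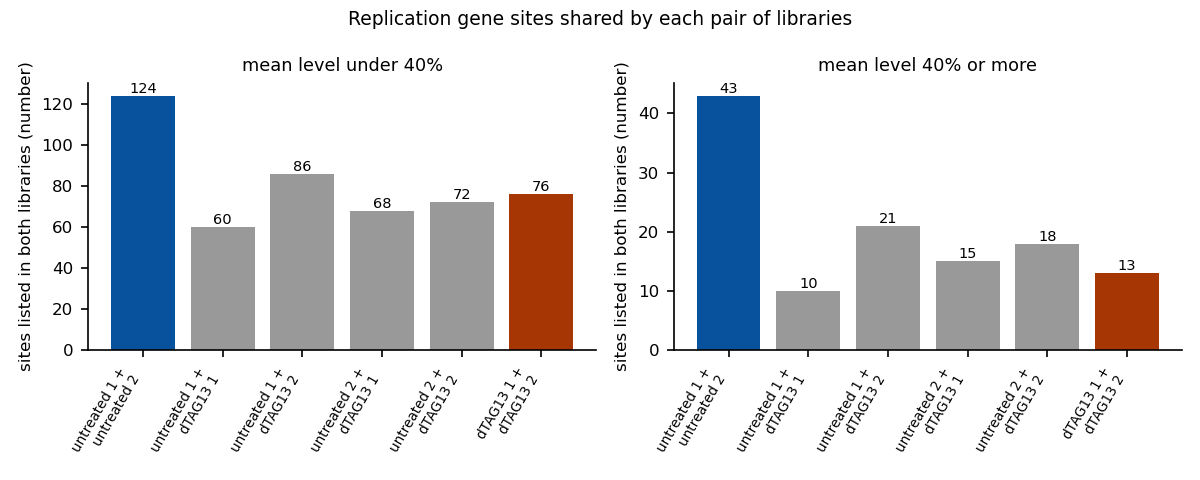
Number of replication gene sites listed in both libraries of each of the 6 pairs, for a mean level under 40% (left) and of 40% or more (right); blue is the untreated pair, grey the mixed pairs and orange the dTAG13 pair. At 40% or more the untreated pair shares 43 sites and every other pair between 10 and 21.

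The same was seen from the side of a single untreated library. Untreated replicate 1 listed 173 replication gene sites at 40% or more with a depth of 50 or more. Of these, 23.7% (95% Wilson interval from 18% to 30.6%) were listed in untreated replicate 2. They were listed in dTAG13 replicate 1 for 2.31% (0.903 to 5.79%) and in dTAG13 replicate 2 for 8.67% (5.32 to 13.8%). With untreated replicate 2 as the reference (165 sites), 18.8% (13.6 to 25.4%) were listed in the other untreated library. The shares in the dTAG13 libraries were 5.45% (2.90 to 10.0%) and 6.67% (3.76 to 11.5%). Both dTAG13 libraries lay below the untreated library in each case. Over all levels the shares were 13.3% against 5.70% and 8.67%, and 12.7% against 6.11% and 6.76%. Intervals cover counting error only, and there is 1 untreated background library per reference, so these shares have no test across libraries.

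The 43 shared sites at 40% or more lay in 23 of the 46 genes, and 23 of them, in 15 genes, were at 40% or more in each untreated library. After dTAG13, 36 of the 43 were listed in neither library, 5 in 1 and 2 in both. Of 9107 such sites in all other genes, 7817 were listed in neither, 1079 in 1 and 211 in both. The share listed again was thus 16.3% in the replication genes and 14.2% in all other genes. These sites were picked for a high untreated mean, so lower dTAG13 levels are favoured by the choice and are a description only. Where 7 of the 43 sites were still listed, every dTAG13 level was below both untreated levels at 6, with a median change of -47.2 points. In all other genes this held at 877 of the sites listed again, which were the 1079 listed in 1 and the 211 listed in both. The median change where listed was -33.3 points there. In the mirror set of 13 sites picked for a high dTAG13 mean, 10 were listed in neither untreated library, and at the other 3 the untreated level differed by a median of -29.0 points and was below both dTAG13 levels at 1. The exception among the 7 was Cdt1, whose product loads MCM, at chr8:123297033, with 100% and 15.3% without and 31.6% in dTAG13 replicate 2. Reads were present near the unlisted sites. In dTAG13 replicate 1, 36 of the 41 unlisted sites had another listed site of the same gene within 100 bases, and the median reads at the nearest listed site were 125. In dTAG13 replicate 2 this held for 28 of 36 sites, with a median of 139 reads.

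Among licensing genes, the strongest shared site was in Orc6, a subunit of the origin recognition complex. At chr8:86034473 (plus strand) its level was 99.7% of 612 reads and 93.2% of 498 reads without dTAG13, and it was not listed with dTAG13. The nearest listed sites of Orc6 lay 7 and 27 bases away in the dTAG13 libraries, with 386 and 314 reads. Orc2 had a site at chr1:58503216 (minus strand) at 93.9% of 472 reads and 83.4% of 518 reads, also unlisted with dTAG13. Both sites were thus above 80% in each untreated library and below the listing limits, or uncovered, in each dTAG13 library. Mcm5 had a site at chr8:75854130 (plus strand) at 74.5% of 788 reads and 74.6% of 913 reads, and it was listed in neither dTAG13 library. The helicase subunits Mcm2 and Mcm3 each had a shared site at intermediate level. That of Mcm2 at chr6:88860679 (minus strand) stood at 60.9% and 42.0%, and that of Mcm3 at chr1:20873583 (minus strand) at 48.4% and 56.1%. These 2 sites were also unlisted with dTAG13.

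Among the genes of origin firing, Mcm10, which activates the helicase, held a cluster of 5 shared sites within 488 bases. At chr2:4995629 (minus strand) the level was 80% and 100% without dTAG13 and 11.4% in dTAG13 replicate 2. At chr2:4996117 it was 52.4% of 382 reads and 75.5% of 611 reads, at chr2:4995729 44.4% and 69.9%, at chr2:4995758 34.0% and 53.7% and at chr2:4995908 84.0% and 20.4%. The last 4 were listed in neither dTAG13 library. Other positions of the same 488 bases were listed with dTAG13. This stretch held 15 and 11 listed sites without and 7 and 8 with dTAG13, of which 5 and 5 without and 0 and 4 with dTAG13 were at 40% or more. The highest dTAG13 level there was 69.6% in dTAG13 replicate 2. Gins2, a subunit of the GINS complex, had a site listed in all 4 libraries and described below. Gins3, of the same complex, had 3 sites at chr8:96370048, chr8:96370520 and chr8:96370561 (plus strand) at 40% or more in each untreated library, the first with 15 and 39 reads. None of the 3 was listed with dTAG13, but other positions of Gins3 were. One of these, chr8:96370334, stood at 53.3% of 15 reads and 71.2% of 59 reads with dTAG13.

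Among the clamp loader and single-strand binding genes, Rpa2, a subunit of replication protein A, had the most deeply read of these sites. At chr4:132505283 (plus strand) its level was 52.6% of 1053 reads and 68.6% of 1276 reads without dTAG13. In dTAG13 replicate 2 it was 13.4% of 1519 reads, and it was not listed in dTAG13 replicate 1. Rfc2 had a site at chr5:134627017 (plus strand) at 82.4% of 404 reads and 65.8% of 339 reads without dTAG13 and 18.2% of 159 reads in dTAG13 replicate 2. In both clamp loader and RPA genes the dTAG13 level lay below both untreated levels. Rfc5 had a site at chr5:117517738 (minus strand) at 79.8% and 33.5% without and 15.8% in dTAG13 replicate 2. The chromatin assembly gene Chaf1a, the large subunit of CAF-1, had a site at chr17:56374859 (plus strand) at 76.2% of 345 reads and 92.2% of 282 reads. Rrm2, the small subunit of ribonucleotide reductase, had a site at chr12:24763586 (plus strand) at 48.2% of 1051 reads and 42.1% of 1063 reads. Neither site was listed with dTAG13. Dbf4 (chr5:8447557) and Pola1 (chrX:92349141) also had sites at 40% or more in each untreated library, but with as few as 23 and 21 reads in untreated replicate 2.

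**Figure D3:**
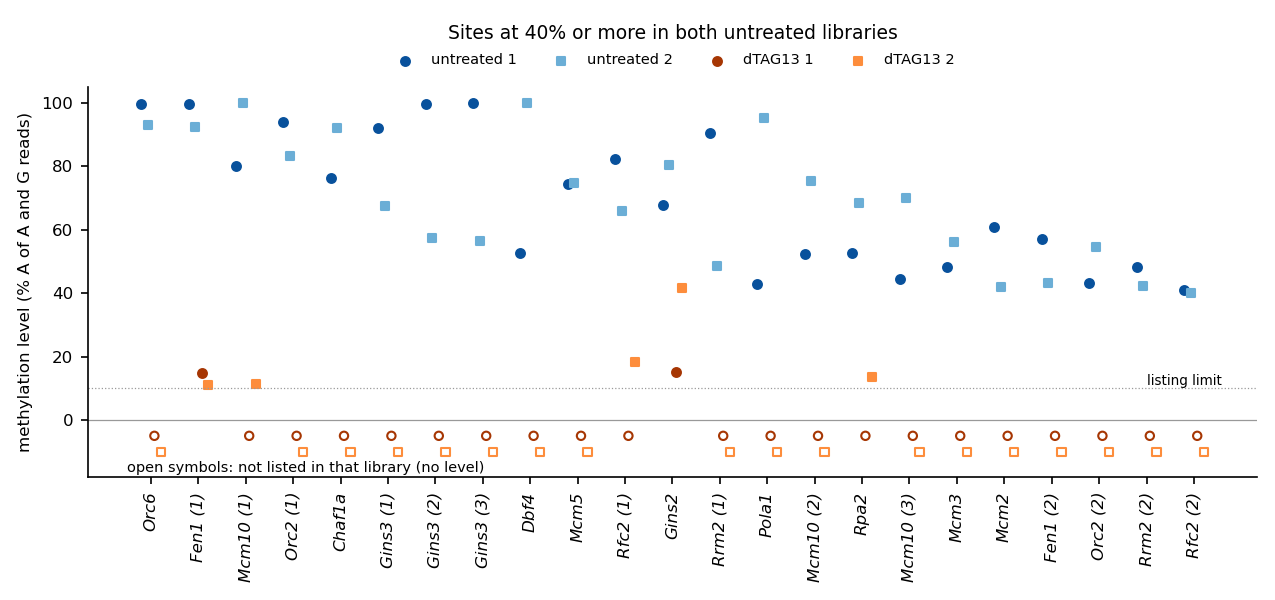
Methylation level (vertical axis, % A among A and G reads) of the 23 sites at 40% or more in both untreated libraries, ordered by their untreated mean; filled symbols are listed levels, and open symbols under the zero line mark libraries in which the site was not listed. Listed dTAG13 levels lie between 11% and 41.8%, and most dTAG13 symbols are open.

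The converse set was smaller and rested on fewer reads. The dTAG13 pair shared 13 sites at 40% or more in 9 genes, of which 5 were at 40% or more in each dTAG13 library. These 5 lay in Gins3, Lig1, Mcm2, Mcm4 and Mcm6, and their lower read number had a median of 33, against 279 for the 23 untreated sites. Lig1, DNA ligase 1, had the site with the highest mean at chr7:13045292 (plus strand), with 100% of 24 reads and 60.9% of 115 reads. Mcm6 had a site at chr1:128259350 (minus strand) at 93.9% of 33 reads and 57.1% of 42 reads. None of the 5 was listed in an untreated library. Pole2, a subunit of polymerase epsilon, had a shared dTAG13 site outside these 5, at chr12:69256628, with 18.7% and 61.6% with dTAG13 and 11.2% in untreated replicate 2. In total, 100 sites in 37 of the 46 genes were listed in at least 2 libraries with a mean level of 40% or more over the libraries listing them, and 57 of these were not untreated-pair sites.

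High sites were also shared between the groups. At a mean of 40% or more, 45 sites in 27 genes were listed in exactly 1 library of each group, and their lower read number had a median of 37. The dTAG13 level was the higher one at 28 of them and the lower one at 16. At 16 sites both levels were 40% or more, and 5 of these had 50 or more reads in both libraries. Gins3 at chr8:96370142 (plus strand) stood at 100% of 97 reads in untreated replicate 2 and 100% of 88 reads in dTAG13 replicate 2. Pold3 at chr7:99732051 (minus strand) stood at 69.1% in untreated replicate 2 and 79.0% of 100 reads in dTAG13 replicate 1. These sites were high with and without dTAG13. Mcm5 at chr8:75836768 stood at 66.0% of 97 reads and 100% of 107 reads, Rfc3 at chr5:151569119 at 52.1% of 194 reads and 51.0% of 51 reads, both in untreated replicate 1 and dTAG13 replicate 2. Gins2 at chr8:121315574 stood at 94.1% of 51 reads in untreated replicate 2 and 58.9% of 258 reads in dTAG13 replicate 2. With fewer reads, Cdc6, which helps load MCM, had a site at chr11:98814430 at 100% of 25 reads and 98.1% of 54 reads in the same libraries. Cdc45, which joins the active helicase, had a site at chr16:18613956 at 100% of 28 reads and 91.5% of 47 reads there. Rfc4 at chr16:22933371 stood at 32.4% of 179 reads in untreated replicate 2 and 80.8% of 52 reads in dTAG13 replicate 1. Pole, the catalytic subunit of polymerase epsilon, had a site at chr5:110473024 at 100% of 36 reads in untreated replicate 2 and 24.1% of 87 reads in dTAG13 replicate 1. Cdc7 at chr5:107132079 (45.5% and 39.9%) and Pola2 at chr19:5992103 (50.0% and 33.3%) were listed in the untreated pair alone.

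The shared untreated sites lay near the 3′ end of the listed stretch of their gene. No annotation of the build of the tables was used, so position was measured as the genomic distance to the 3′-most site listed for the gene in any library, introns included. Of the 43 sites, 29 (67.4%, Wilson 95% interval 52.5 to 79.5%) lay within 1000 bases of it, and 1 of them, in Mcm10, was itself the 3′-most site. The median distance was 507 bases. Of the 1067 sites at 40% or more listed in a single library, 24.5% (22.0 to 27.1%) lay within 1000 bases, with a median of 6260 bases. Shared untreated sites under 40% lay within it for 37.1% (29.1 to 45.9%). For sites of 40% or more shared by the dTAG13 pair it was 4 of 13 (30.8%, 12.7 to 57.6%). With at least 100 reads in both untreated libraries, 22 of 24 sites (91.7%) lay within 1000 bases, and 87.0% of the 23 sites at 40% or more in each library did. In all other genes the shares were 40.6% for shared untreated sites at 40% or more and 29.1% for high sites of a single library. Sites of a gene share its end and its reads, so these shares have no test.

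**Figure D4:**
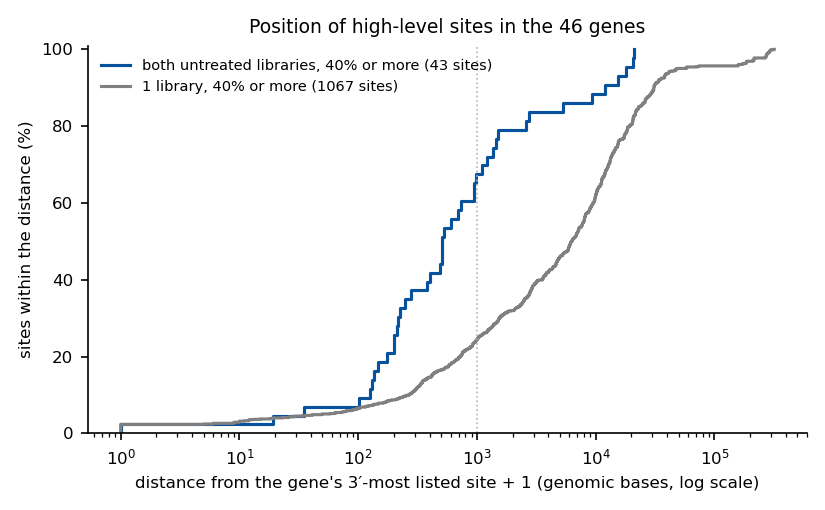
Cumulative share of sites (vertical axis, %) within a genomic distance of the 3′-most listed site of their gene (horizontal axis, log scale, 1 base added); blue are the 43 sites at 40% or more shared by the untreated libraries and grey the 1067 sites at 40% or more listed in 1 library. At 1000 bases (dotted line) the blue curve is at 67.4% and the grey curve at 24.5%.

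Shared low sites had close neighbours more often. Another listed site of the same gene and library lay within 10 bases for 66.1% of the shared untreated sites under 40%, for 39.5% of those at 40% or more and for 34.9% of the sites listed in a single library. In all other genes these shares were 56.3%, 39.1% and 29.7%.

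A test of the level needs a value in every library, so it was run where all 4 tables list the site with a depth of 20 reads or more. There were 6 such sites in 6 replication genes, Fen1, Wdhd1, Gins2, Rrm1, Mcm2 and Dut, out of 2321 sites tested. Being listed needs a level of 10% or more with dTAG13, so sites that lost more are missing from this test. In Fen1, the flap endonuclease that trims Okazaki fragments, the site at chr19:10177069 (minus strand) stood at 99.7% of 300 reads and 92.3% of 504 reads without dTAG13. With dTAG13 it stood at 14.8% of 386 reads and 11% of 499 reads, so almost all untreated reads and few dTAG13 reads were methylated. The change was -83.1 percentage points, with an adjusted p of 0.0117 in the quasi-binomial model with dispersion moderated by limma. Another Fen1 site, chr19:10176788, was at 57.2% and 43.3% without dTAG13 and unlisted with it.

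In Wdhd1 the site at chr14:47478576 (minus strand) stood at 35.7% of 339 reads and 38.8% of 278 reads without and at 13.6% of 264 reads and 12.9% of 147 reads with dTAG13. The replicates of each group were within 4 points of each other and the groups far apart. The change was -24.0 points (quasi-binomial model with limma moderation, adjusted p 0.0417). In Gins2 the site at chr8:121308255 (minus strand) stood at 67.7% of 226 reads and 80.3% of 356 reads without dTAG13, and at 15% of 240 reads and 41.8% of 79 reads with it. The groups did not overlap, but the change of -45.6 points did not pass (adjusted p 0.175 by the same limma-moderated model), and the dTAG13 libraries differed widely. All 3 sites lay within 526 bases of the 3′-most listed site of their gene, at 526, 151 and 124 bases.

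The remaining 3 sites were low in every library and did not pass. In Rrm1, at chr7:102106487 (plus strand), the level was 14.2% and 18.9% without and 11.2% and 12.3% with dTAG13 (change -4.86 points). In Mcm2, at chr6:88869010 (minus strand), it was 10.5% and 10.2% against 20.0% and 14.3% (6.77 points). In Dut, the dUTPase that keeps uracil out of DNA, at chr2:125091115 (plus strand), it was 12.8% and 17.6% against 14.3% and 28.0% (5.89 points). The groups separated downward in Rrm1 and upward in Mcm2 and overlapped in Dut, with adjusted p of 0.612, 0.584 and 0.877 in the limma-moderated model. These 3 sites lay 12426, 8548 and 9786 bases from the 3′-most listed site. In all, 2 of the 6 sites changed, both lower, beside 2.2% of all tested sites lower and 0.0862% higher. The libraries did not overlap downward at 4 of the 6 sites, against 19.4% of all tested sites, and upward at 1, against 17.8%. At an unadjusted p under 0.05 in this model there were 3 of the 6, beside 217 of all 2321 sites. The 2 calls rest on all 4 libraries. Dropping any single library leaves 1 in a group, so only the size of the change is given for such fits. In Fen1 the change was then between -79.4 and -86.8 points, and in Wdhd1 between -22.4 and -25.6 points. Without a library the model has 1 residual degree of freedom per site and more sites enter.

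Summed per gene over tested sites, the same 6 genes each rested on their single site. Fen1 passed (quasi-binomial model with limma moderation, adjusted p 0.00607), and 4.53% of 1016 genes were called lower. Fen1 lost the call with limma on log2 odds (adjusted p 0.0959) and with the replicate block in the limma-moderated model (0.0817). With the replicate block 0 of all 1016 genes were called. The Fen1 call rests on all 4 libraries, and without any 1 library the change stayed between -79.4 and -86.8 points. Wdhd1 (adjusted p 0.0584) and Gins2 (0.0910) did not pass in the limma-moderated model, but Wdhd1 passed with limma on log2 odds (adjusted p 0.0470).

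Of the sites listed in 3 libraries, the deepest ones under 40% stayed under 40% with dTAG13. Mcm5 at chr8:75853957 stood at 13.5% of 1379 reads and 13.2% of 1766 reads without and 19.8% of 650 reads in dTAG13 replicate 2, above both untreated levels. Rrm2 at chr12:24761800 stood at 19.0% and 14.9% against 20.2%, and Lig1 at chr7:13044998 at 13.5% and 14.6% against 15.2%. Another Mcm5 site, chr8:75845952, stood at 13.1% in untreated replicate 1 and 14.1% and 14.8% with dTAG13. Sites with few reads moved further, such as Cdc6 at chr11:98799638, with 20.0% and 19.0% without and 79.2% of 24 reads in dTAG13 replicate 1. Of 124 shared untreated sites under 40%, 22 (17.7%) were listed again with dTAG13, with a median change of 2.45 points. In all other genes 23.4% of such sites were listed again, with a median change of 0.41 points.

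Coverage of the replication genes was lower after dTAG13 than that of the median gene. Values are log2 of the deposited gene coverage, centred on the median gene of each library. The log2 change was below 0 in 37 of the 46 genes (80.4%), against 56.7% of all 12520 genes tested. Its median was -0.32 over the replication genes and -0.07 over all genes. In 28 replication genes (60.9%) each dTAG13 value was below each untreated value, against 29.2% of all genes, and in 2 each was above, against 17% of all genes. With limma, 0 of the 46 genes and 0 of all genes passed at an adjusted p under 0.05. At an unadjusted p under 0.05 there were 13 replication genes, all lower, or 28.3% against 8.34% of all genes called lower. This count of lower genes became 5 without centring (674 of all 12520 genes) and 5 with quantile normalization (555 of all genes). It was 10 with the replicate block (914 of all genes) and 15 with log2 of the value plus 10 (1146 of all genes). With quantile normalization, 24 replication genes were separated downward and 5 upward, beside 2792 and 2405 of all 12520 genes. The median log2 change was then -0.23 over the replication genes and -0.01 over all genes. With any 1 library left out, the median log2 change was -0.28 to -0.35 over the replication genes and -0.07 to -0.08 over all genes. Some marker genes fell to a like extent in the same measure. The log2 changes of Pax6 (-0.42 ± 0.21), Lhx2 (-0.32 ± 0.22) and Six3 (-0.26 ± 0.20) among the retinal progenitor markers, and of the pluripotency gene Dppa5a (-0.43 ± 0.21), had separated libraries (SE, n = 2 per group). Rax was at 0.19 ± 0.21 with separated libraries, and Six6 (-0.17), Otx2 (-0.09), Nanog (-0.21), Pou5f1 (-0.01), Zfp42 (0.34), Tubb3 (-0.21) and Stmn2 (-0.03) overlapped. The mesendoderm gene Sox17 had centred log2 values of -1.11 and -1.99 without and -1.49 and -0.67 with dTAG13. Its mean was thus higher with dTAG13, with overlapping libraries. The part of cell makeup in the coverage of the replication genes was not tested. The genes were picked by name with earlier results known, so their count has no test of its own. In a bulk sample, fewer cells of a type and less RNA per cell cannot be told apart.

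**Figure D5:**
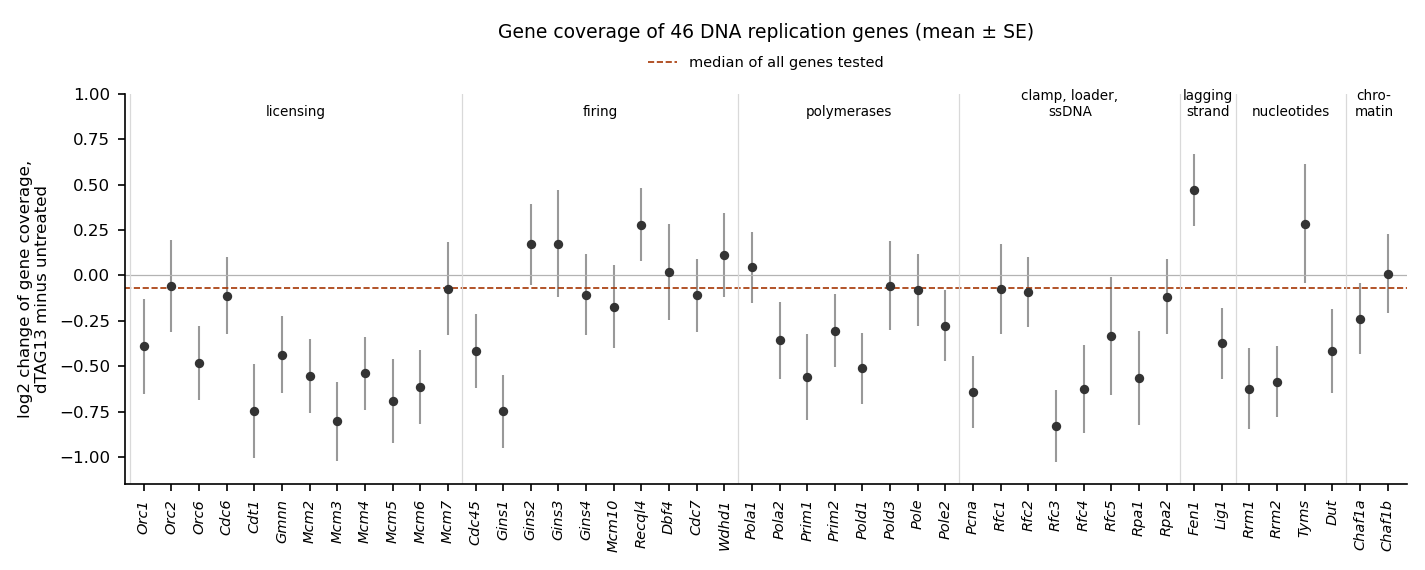
Log2 change of centred gene coverage from untreated to dTAG13 (vertical axis; points are limma estimates and bars their SE, n = 2 per group) for the 46 genes by role; the dashed line is the median of all genes tested, -0.07. Mcm2, Mcm3, Mcm4, Mcm5 and Mcm6 lie between -0.54 and -0.80, and Fen1 lies highest at 0.47.

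The largest fall in coverage was in Rfc3, with 227 and 240.5 without and 104 and 149 with dTAG13. Its log2 change was -0.83 ± 0.20 (SE, n = 2 per group; limma adjusted p 0.363), while its listed sites did not fall. Mcm3 had coverage of 340 and 445 without and 180 and 246 with dTAG13 (log2 change -0.80 ± 0.22, limma adjusted p 0.363). Gins1 had 147 and 141 against 66.6 and 98.3 (log2 change -0.75 ± 0.20, limma adjusted p 0.363). In these 3 genes the groups did not overlap. The helicase genes Mcm2, Mcm3, Mcm4, Mcm5 and Mcm6 had log2 changes of -0.54 to -0.80, whereas Mcm7 was at -0.07 ± 0.26. Cdt1 was at -0.75, Pcna at -0.64, Rrm1 at -0.62 and Rrm2 at -0.59, and their centred values separated. Fen1 went the other way, from 222 and 248 to 266 and 354 (log2 change 0.47 ± 0.20, limma adjusted p 0.394), with both dTAG13 libraries above both untreated libraries. Tyms (0.29 ± 0.33) and Recql4 (0.28 ± 0.20) came next, and of these 2 the libraries separated in Recql4 alone.

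Lower coverage and fewer listed sites did not go together across the genes. The correlation of the 2 log2 changes over the 46 genes was -0.079 (Pearson) and -0.085 (Spearman), a description over genes measured in the same 4 libraries. In the 13 genes whose coverage stayed within 1.5-fold over the 4 libraries, the ratio of listed sites was 0.807. Coverage was still lower in both dTAG13 libraries in Orc2, Mcm7, Rfc1 and Chaf1a of this set and overlapped in the others. The part of coverage in the number of listed sites was not tested.

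A further list of 33 replication genes held the remaining subunits and cofactors, such as Orc3, Pold2, Rpa3, Timeless, Clspn and Top2a, and 32 of them had listed sites. Their sites numbered 1010 and 926 without and 661 and 743 with dTAG13 (ratio 0.725). Of 31 tested for number of sites with edgeR, 0 passed in either direction, 27 had a negative change and the median log2 change was -0.52. Of 31 tested for coverage with limma, 0 passed, 22 had a negative change and the median log2 change was -0.14. In coverage, the dTAG13 values were separated downward for 13 of the 31 and upward for 1, against 29.2% and 17% of all genes. In number of listed sites they were separated downward for 18 of the 31 and upward for 1, against 46.4% and 4.51% of all genes.

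For Mettl3, whose protein carries the tag, the untreated libraries listed 10 and 15 sites and the dTAG13 libraries 10 and 8. Its coverage was 60.7 and 59.4 against 64.4 and 61.8. A degron acts on the protein, which these tables do not measure, so Mettl3 RNA does not check the labels.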

How the data were processed

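The 46 genes, the further list of 33 replication genes and the marker lists were chosen with earlier results of these data known. Per the file headers, each deposited table gives for every called site the counts of A and G reads and of A reads, their fraction (the level), a conversion rate of the gene as a fraction, a p-value and its adjusted value, and the gene's coverage, a signal whose scaling is not described. The authors sequenced poly(A) RNA after GLORI treatment, per the labels. The submitters' processing notes name mm10. The aligner and site caller are not given in the sources used here. The largest adjusted p-value in the deposited tables was 0.00401.

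Levels were recomputed as A over A and G reads, and a site was counted once per library. For site and gene levels, sites present in every table at a depth of 20 reads or more entered a quasi-binomial model of the counts, its dispersion moderated over all sites by limma 3.58.1 and held at 1 or above. The number of listed sites per gene was tested with edgeR 4.0.16 (quasi-likelihood, equal library sizes, at least 10 sites over the 4 libraries, SE derived from the F statistic). Log2 coverage, centred on the median gene, was tested with limma. P-values were two-sided and Benjamini-Hochberg adjusted over all features tested, with a threshold of 0.05. Each of these tests was checked on simulated data with large changes only. The level test recovered 76% of 200 sites moved from 80 to 20%, with 7 false calls. The edgeR test recovered 83% of 200 genes with a mean of 40 or more listed sites lowered 10-fold, with 0 false calls. The coverage test recovered 100% of 200 genes lowered by 1.5 log2, with 11 false calls. Recovery of smaller changes was not checked. Shares have Wilson 95% intervals. PCR duplicates and shared fragments are not in these intervals.

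Genes were named by rule: those with a site tested in all 4 libraries, the 10 with the most listed sites, those past a threshold, the 5 largest falls and rises in listed sites, the 3 largest falls and rises in coverage, those with a site in at least 2 libraries at a mean of 40% or more, and Mettl3. Pcna, Chaf1b, Prim1 and the single sites shown at the remaining genes were chosen after their values were seen. Alternatives changed the read, level and adjusted p limits, the test, the scaling, the replicate block and the libraries used.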

Additional observations from a re-analysis of the deposited data

How the results depend on the processing

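The listed-site ratio of 0.768 became 0.876 for sites of at least 20%. The mean share of untreated sites listed again with dTAG13, 0.524 of that between the untreated libraries, became 0.277 for reference sites of 40% or more and 0.743 when any listed site within 5 bases counted. The ratio of sites of 40% or more shared by the dTAG13 and untreated pairs, 0.302, became 0.143 with at least 50 reads and 0.0417 with at least 100 reads in both libraries. The share of untreated-pair sites within 1000 bases of the 3′-most listed site, 67.4%, became 91.7% with at least 100 reads and 87.0% for sites of 40% or more in both libraries. These read and level limits for shared sites were chosen after seeing the data. Leaving out 1 library at a time gave listed-site ratios of 0.735 to 0.802, ratios for sites of 40% or more of 0.954 to 1.07 and, for the dTAG13 libraries only, re-listing ratios of 0.455 to 0.593. The re-listing ratio needs both untreated libraries, so neither could be left out.

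Of the 6 sites tested for level, the 2 calls became 1 with at least 50 reads, 5 with Fisher's exact test on summed reads, which ignores the spread between libraries, and 0 with limma on log2 odds. Of all 2321 sites, Fisher's exact test called 296 lower and 235 higher, and limma on log2 odds called 41 lower and 0 higher. Without any 1 of the 4 libraries, 12 to 22 replication gene sites were tested, so these fits are not limited to the same 6 sites. The Fen1 change stayed between -79.4 and -86.8 points and the Wdhd1 change between -22.4 and -25.6 points. The single call at gene level, Fen1, rests on all 4 libraries. It became 6 calls with Fisher's exact test, which called 249 lower and 179 higher of all 1016 genes. With limma on log2 odds there was again 1 call, but of Wdhd1 (adjusted p 0.0470) in place of Fen1 (0.0959). On all 4 libraries, the Fen1 site also passed with at least 50 reads, with no minimum beyond 15 reads and with Fisher's exact test. It lost the call with limma on log2 odds (adjusted p 0.159) and with the replicate block in the quasi-binomial model (0.117). The Wdhd1 site passed with no minimum beyond 15 reads and with Fisher's exact test, but not with limma on log2 odds (adjusted p 0.0644). In the quasi-binomial model it did not pass with at least 50 reads (adjusted p 0.0522) or with the replicate block (0.230). The median log2 change of listed sites per gene, -0.39, turned to 0.11 with TMM on total listed sites, a setting in which the median of all genes was -0.02. The Dut change of 5.89 points ranged from -0.952 (without dTAG13 replicate 2) to 12.7 at site and gene level when 1 library was left out. The 13 replication genes lower in coverage at an unadjusted p under 0.05 (limma) ranged from 5 to 15 over the alternatives on all 4 libraries. The number of all genes lower ranged from 555 to 1146 there. For listed sites per gene and coverage, 0 replication genes were called under every alternative run. The causes of these changes were not tested.

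Same-numbered libraries showed little joint deviation: the correlation of their deviations was 0.00227 for coverage, 0.00473 for listed sites and 0.0193 for levels. With 2 libraries a group, these values cannot settle whether same-numbered libraries share a culture or batch. With the replicate block, calls fell from 2 to 0 at site level and from 1 to 0 at gene level, with the test left with fewer degrees of freedom, and stayed at 0 for listed sites and coverage. In this setting 0 of all 2321 sites and 0 of all 1016 genes were called for level.

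With 2 libraries a group, few sites recur and a site under 15 reads, 5 A reads or 10% cannot be told from an unmethylated or uncovered one. Levels at sites that fall below 10% with dTAG13 have no value there.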
